A study of Bos taurus with 9 samples.

Results

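The subject is a set of 73 bovine genes whose RNA was already present in the mature oocyte and stood at least 4 times higher in every 2-cell embryo library. The genes were selected on the deposited FPKM values themselves. FPKM counts sequenced fragments for each kilobase of a transcript, relative to all fragments of that library. A gene was included when all 3 oocyte libraries held at least 1 FPKM, the lowest of the 6 embryo libraries was at least 4 times the highest oocyte library, and the mean of the 9 libraries was under 1000 FPKM. These 73 genes are 0.971% of the 7516 genes with at least 1 FPKM in every oocyte library, out of 24616 gene identifiers in the table. The rise from oocyte to embryo is therefore what chose the genes. It is given below as a description and was not tested.

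All samples were Holstein cattle (Bos taurus). MII oocytes, mature unfertilised eggs halted in the second meiotic metaphase, were sequenced in pools of 3, with 3 libraries. IVF embryos, made by fertilisation in culture, and SCNT embryos, made by placing a somatic nucleus in an egg whose own nucleus had been removed, were sequenced at the 2-cell stage in pools of 6, with 3 libraries each. Pool size and stage therefore changed together in any comparison with oocytes and cannot be told apart. One tissue field calls the oocytes wild embryos, whereas their title and stage give MII and oocyte. The donor cell of the SCNT embryos, the age of the animals, and whether replicate pools had separate animals or cultures as their source are not given in the labels. All p-values therefore measure the spread between these libraries, which may be technical.

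The growing oocyte makes and stores a large supply of messenger RNA and then falls nearly silent in transcription before it matures. The first cleavages run mainly on this store, much of which is degraded, while the embryo's own genome is switched on in steps. In cattle a minor wave of transcription is known around the first cleavages, and the major wave follows several divisions later. In SCNT embryos the genome to be switched on is that of a differentiated cell.

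The table names genes by Ensembl identifier only. None of the 24616 identifiers matched a name in the RefSeq gene table used here, so the 73 genes are described by number, level and direction, and what each of them does is not stated. The gene lists prepared for pathways and for oocyte, cumulus, fibroblast, sperm and blood cell markers were not applied for the same reason, and the labelled cell types were not checked against markers. The FPKM of a library summed to between 1153912 and 1386979. Steps between low values placed the relative depth of the libraries between 79.8% (MII replicate 1) and 100% (SCNT replicate 3) of the deepest. How many reads stand behind a value was not worked out, so counting intervals were not computed. FPKM is a share of the library, so a rise in one gene's share lowers that of others. In pooled samples, fewer cells holding an RNA and less RNA per cell cannot be told apart.

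The 73 genes were low in oocytes and of middling to high level in embryos. Their mean level in MII oocytes ran from 1.19 to 101.9 FPKM, with a median over genes of 4.87 FPKM, and 53 of the 73 were under 10 FPKM. The median over all 7516 oocyte-present genes was 13.8 FPKM. In IVF embryos the mean levels ran from 10.4 to 549.8 FPKM, with a median of 38.5 FPKM. In SCNT embryos they ran from 8.54 to 641.1 FPKM, with the same rounded median of 38.5 FPKM. Over the 7516 oocyte-present genes, the corresponding medians were 19.2 FPKM in IVF and 15.5 FPKM in SCNT embryos. By these medians the set lay below the oocyte-present genes in the egg and above them in both kinds of embryo, which the choice of genes favours. Of the 73, 54 averaged 20 FPKM or more over the embryo libraries.

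**Figure D1:**
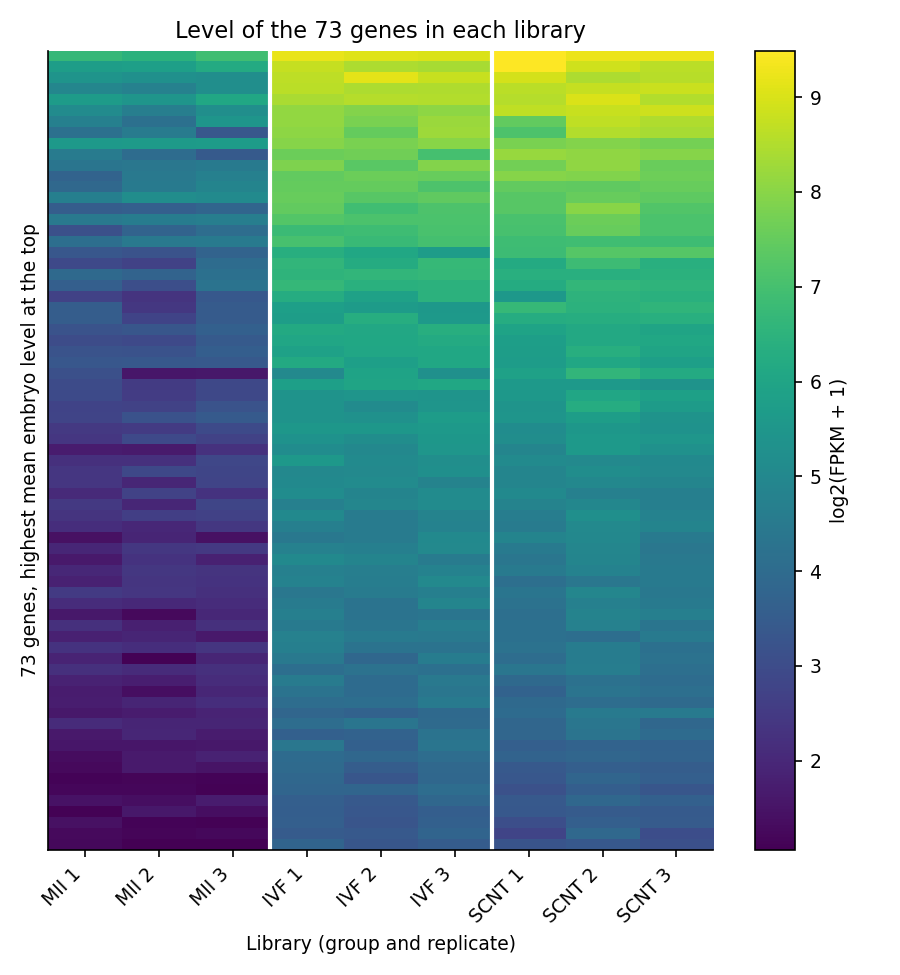
Level of each of the 73 genes (rows, ordered by mean embryo level) in each of the 9 libraries (columns, by group and replicate), with colour giving log2(FPKM + 1). The 3 MII columns are darker than the 6 embryo columns in every row, as the choice of genes required. All SCNT values lie above all IVF values in 9 rows (12.3%, against 4.63% of all tested genes). They lie below in 7 rows (9.59%, against 36.7%), and in the other rows the values overlap.

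Summed over the set, the 73 genes held 788.4, 764.8 and 964.5 FPKM in MII replicates 1, 2 and 3. The sums were 6656, 6196 and 6506 FPKM for IVF embryos and 7002, 7952 and 7033 FPKM for SCNT embryos. As a share of the library this was 0.0664% ± 0.00962 (SD, n = 3) in oocytes, 0.537% ± 0.0187 (SD, n = 3) in IVF embryos and 0.57% ± 0.0422 (SD, n = 3) in SCNT embryos. MII replicate 3 was the highest oocyte library and SCNT replicate 2 the highest embryo library, and the IVF and SCNT sums did not overlap. As shares of the library total they did overlap, with 0.552% in IVF replicate 1 against 0.549% in SCNT replicate 1 and 0.543% in SCNT replicate 3. The 5 most abundant of the genes made up 34% of the set's sum in oocytes, 32.7% in IVF and 32.9% in SCNT embryos.

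The size of the rise varied among the genes, and most lay close to the limit that chose them. The ratio of the lowest embryo library to the highest oocyte library had a median of 4.76 and reached 9.61. It was 5 or more for 31 genes, 6 or more for 12, 7 or more for 7 and 8 or more for 3. Taken between group means, the median rise was 7.16-fold in IVF embryos (range 4.80 to 15.4) and 7.17-fold in SCNT embryos (range 4.59 to 19.8). Both folds use the same 3 oocyte libraries. The rise was 10-fold or more for 13 genes in IVF and 17 genes in SCNT embryos.

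The largest ratio belonged to ENSBTAG00000031717, at 29.4, 25.9 and 36.7 FPKM in MII replicates 1, 2 and 3. In IVF embryos it stood at 389.9, 352.1 and 358.9 FPKM, and in SCNT embryos at 395.3, 424.3 and 444.7 FPKM. Every SCNT library lay above every IVF library, but by little, and the lowest embryo library was 9.61 times the highest oocyte library. ENSBTAG00000004295, the next in order, was at 10.7, 11.2 and 12.9 FPKM in the oocytes. Its embryo values were 175.1, 117.6 and 139.2 FPKM in IVF and 158.1, 254 and 147.1 FPKM in SCNT replicates. Here the IVF and SCNT libraries overlapped, SCNT replicate 2 stood above all others, and the ratio was 9.11. A further gene had a ratio of 8.22, with 42.2, 38.6 and 36.6 FPKM in oocytes, 398.2, 570.4 and 435.6 FPKM in IVF and 492.8, 346.7 and 378.5 FPKM in SCNT embryos, where the groups of embryos overlapped.

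The most abundant gene in the embryos was not among those with the largest ratios. This most abundant of the 73 genes was at 100.7, 86.1 and 118.7 FPKM in oocytes, 597.7, 541 and 510.8 FPKM in IVF and 716.3, 604.5 and 602.5 FPKM in SCNT embryos, with a ratio of only 4.30. The largest rise between means in SCNT embryos, 19.8-fold, was that of a gene of 59.8 FPKM over the embryo libraries, at 7.63, 1.94 and 2 FPKM in the oocytes. Its fold rests on uneven oocyte values, since MII replicate 1 was 3.94 times MII replicate 2. That gene stood at 31.4, 60.8 and 38.2 FPKM in IVF and 57.9, 96.9 and 73.8 FPKM in SCNT replicates, with the libraries overlapping.

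**Figure D2:**
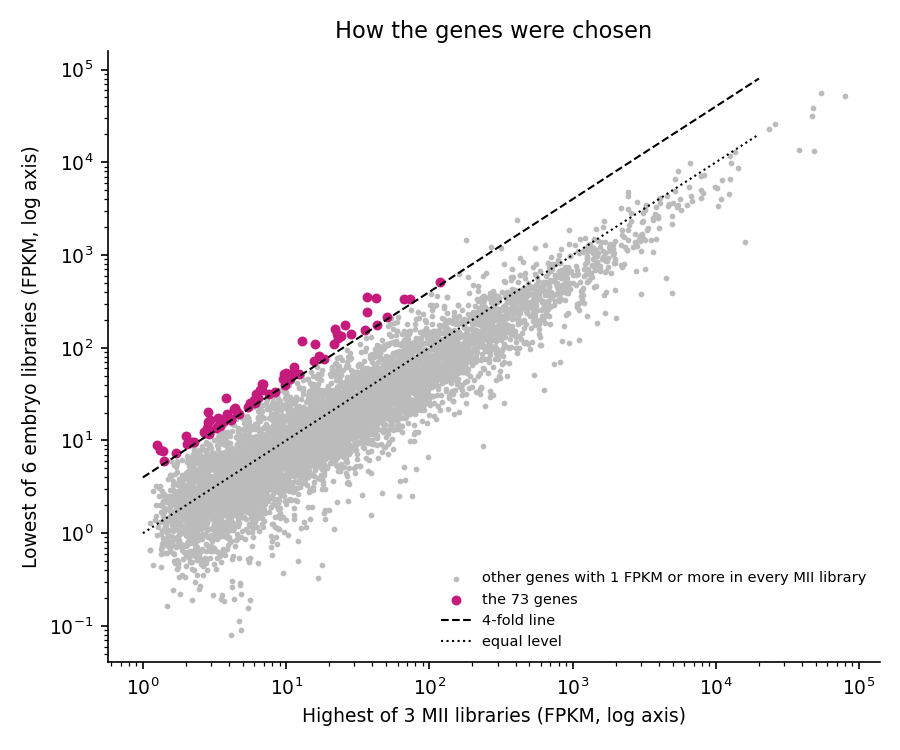
Each point is a gene with at least 1 FPKM in every MII library, by the highest of the 3 MII libraries (x, FPKM, log axis) and the lowest of the 6 embryo libraries (y, FPKM, log axis). The 73 genes lie on or above the dashed 4-fold line, mostly near it, and the 3 grey points above that line averaged 1000 FPKM or more over the 9 libraries. Another 30 genes with an embryo library at 0 are not drawn.

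The limit of 4 lay within a continuous distribution. Of the 73 genes, 28 had a ratio under 4.5, and a further 28 oocyte-present genes under 1000 FPKM lay between 3.5 and 4. The 3 genes just inside had ratios of 4.01, 4.01 and 4.01, with means over the MII libraries between 2.42 and 7.97 FPKM. Those just outside had ratios of 3.95, 3.95 and 3.93. The first of them was at 1.92, 3.70 and 2.49 FPKM in oocytes, 14.6, 16.3 and 21.2 FPKM in IVF and 17.5, 24.1 and 21.9 FPKM in SCNT embryos, much like the genes inside. A further 3 genes met the fold but had a mean of 1000 FPKM or more, from 1102 to 1874 FPKM. In the opposite direction, and with the same limits on oocyte level and mean, 10 genes had every oocyte library at least 4 times the highest embryo library.

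Oocyte replicate 3 had the most weight in deciding membership. It was the highest of the oocyte libraries for 44 of the 73 genes (60.3%), against 30.1% of the 9458 tested genes, those that reached 1 FPKM in 3 or more libraries. Without MII replicate 3, 129 genes met the rule, the 73 among them, while leaving out any other library gave 74 to 86 genes. Scaling mattered as well. With median-ratio scaling, which sets libraries level at the median of genes averaging 10 FPKM or more, 53 genes met the rule, 50 of them among the 73. With quantile normalization, which gives all libraries one distribution of values, 27 genes met it, 26 of them among the 73. With FPKM rescaled to a common total, 77 met it and 68 were shared.

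Both comparisons with oocytes were tested over all 9458 genes with limma on log2(FPKM + 1), and they serve here only as the background. For IVF embryos, 44.5% of all tested genes were called higher at an adjusted p under 0.05, and for SCNT embryos 33.8%. All 73 genes were called higher in both, which the choice of genes brings about and from which nothing is read. The median log2 change was 2.62 for the set in IVF embryos, against 0.40 over all tested genes, and 2.62 in SCNT embryos, against 0.16. These background shares depend on scaling. For IVF embryos the calls were 4212 higher and 896 lower as deposited but 2112 higher and 2150 lower with quantile normalization. For SCNT embryos they were 3193 higher and 1713 lower as deposited, and 2381 higher and 2793 lower with quantile normalization.

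The rule asked the same of IVF and SCNT embryos, and many genes met it in both. Applied to IVF libraries alone it gave 107 genes, and applied to SCNT libraries alone 96 genes. The 73 shared genes are 68.2% of the first list and 76% of the second. The lists use the same oocyte libraries, so their overlap is given as a count only. The 34 genes that met the rule in IVF embryos alone still had a lowest SCNT library between 2.18 and 3.86 times the highest oocyte library. For the 23 genes that met it in SCNT embryos alone, the lowest IVF library was 2.19 to 3.95 times the highest oocyte library. In neither list was any gene under 2 in the other kind of embryo, so at this cut-off the lists differ by how far a gene rose in its lowest library.

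SCNT against IVF embryos is the contrast that the rule did not use directly, although a gene low in any one embryo library could not enter. In it, no member passed the test. Limma on all 9 libraries gave 0 of 73 genes at an adjusted p under 0.05, where 0.18% of all tested genes were called (17 of 9458). The lowest adjusted p in the set was 0.061 (limma). At an unadjusted p under 0.05, limma gave 10 of the 73 genes (13.7%), 6 higher and 4 lower in SCNT embryos, against 30.2% of all tested genes. At an adjusted p under 0.1, a threshold added after seeing the data, 4 genes were called higher and 1 lower, where 1.66% of all tested genes were called higher and 13.4% lower. The count of 0 depended on single libraries: limma called 5 of the 73 genes without MII replicate 2 (6.85%, against 17% of all tested genes). It called 1 without MII replicate 3 (1.37%, against 0.285%) and 1 without SCNT replicate 1 (1.37%, against 0.423%). With only the 6 embryo libraries fitted it called 4 (5.48%, against 13.4%). Leaving out oocyte libraries left each SCNT minus IVF log2 change as it was, and changed only the estimated spread and the p-values. These counts do not show that the embryos were alike. The 95% confidence interval of the SCNT minus IVF change had a median half-width of 0.41 on the log2 scale. It lay wholly within -1 to 1 for 68 of the 73 genes, but within -0.5 to 0.5 for only 19.

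The changes between SCNT and IVF embryos were small for most of the genes. The median log2 change over the 73 was -0.05, with 32 genes above 0 and 41 below, and 50 genes lay within 0.25 of 0. The mean SCNT level was between 0.662 and 2.11 times the mean IVF level, with a median of 0.978. Over all 9458 tested genes the median log2 change was -0.25, and 63 of the 73 genes lay above that value. The rule shut out genes low in any SCNT or IVF library, a limit that the tested genes as a whole did not have. Nothing is therefore read from where the set lay against them. The sign of the set's median depended on scaling. It was -0.14 when libraries were set to a common total, 0.20 under median-ratio scaling and 0.19 under quantile normalization, where the medians of all tested genes were -0.33, -0.04 and -0.03. Relative to the median of all tested genes, the set's median was 0.20 higher as deposited, 0.19 with the common total, 0.24 under median-ratio scaling and 0.23 under quantile normalization.

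For 57 of the 73 genes the SCNT and IVF libraries overlapped. Every SCNT library lay above every IVF library for 9 genes (12.3%, against 4.63% of all tested genes), and below for 7 genes (9.59%, against 36.7%). These counts moved with the scaling, and so did those over all tested genes. Under median-ratio scaling 24 of the 73 genes lay above (32.9%, against 13.4% of all tested genes) and 1 below (1.37%, against 15.7%). Under quantile normalization 19 lay above (26%, against 10.9%) and 1 below (1.37%, against 14.4%). With the common total 5 lay above (6.85%, against 2.87%) and 13 below (17.8%, against 45.9%). Leaving out SCNT replicate 1 gave 16 above (21.9%, against 9.63%). Leaving out SCNT replicate 2 gave 16 below (21.9%, against 49.1%), and leaving out IVF replicate 2 gave 20 below (27.4%, against 46.3%). Nothing is read from the set's shares against those of all tested genes, since the rule shut out genes low in any embryo library.

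**Figure D3:**
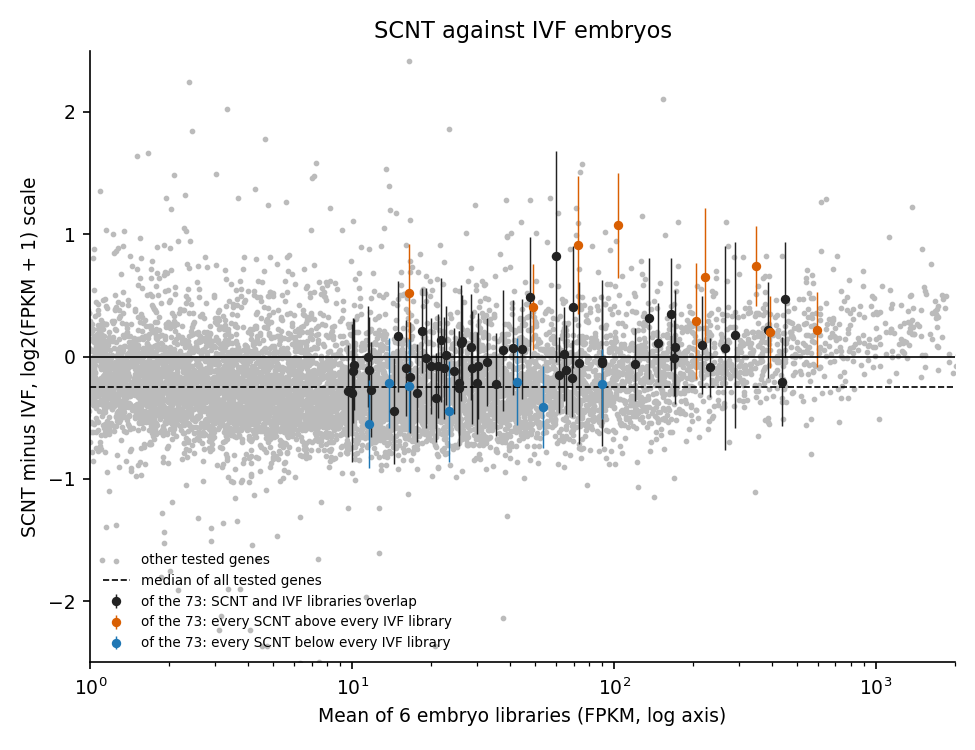
SCNT minus IVF change on the log2(FPKM + 1) scale (y) against the mean of the 6 embryo libraries (x, FPKM, log axis) for the 73 genes, with 95% confidence intervals from limma, and for the other tested genes in grey. The dashed line is the median of all tested genes (-0.25), most of the 73 lie between it and 0 or higher, and the genes with all SCNT libraries above the IVF libraries lie mainly at high levels. The axes leave out 357 of the other tested genes.

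The counts differed with the embryo level of the gene, in the set and in all tested genes. Among the 19 genes that averaged 100 to 1000 FPKM over the embryo libraries, 15 had a positive log2 change (78.9%, against 44.3% of all tested genes of that level). Their median was 0.20, against -0.05. In 6 of them every SCNT library lay above every IVF library (31.6%, against 14.3%), and in 0 below (against 24.2%). Among the 35 genes of 20 to 100 FPKM, 14 were positive (40%, against 18%), with a median of -0.05, against -0.28. Among the 19 genes under 20 FPKM, 3 were positive (15.8%), a share near the 17.7% of all tested genes of that level, with a median of -0.12, against -0.27. The median was highest in the top class in all tested genes as well, and the part of level in the differences among the 73 was not tested. Here too the rule limited which genes could enter the set, and all tested genes had no such limit. The level classes, which were not planned, were counted only as deposited, so these shares may not hold under other scalings. Over the 73 genes, 32 changes were positive as deposited and 23 with the common total. Under median-ratio scaling 62 were positive, and under quantile normalization 65.

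ENSBTAG00000038047 differed most. It was at 9.10, 8.38 and 12.3 FPKM in MII replicates 1, 2 and 3, at 80.3, 66.7 and 52.2 FPKM in IVF embryos and at 113.4, 152.9 and 153.3 FPKM in SCNT embryos. The lowest SCNT library was above the highest IVF library. The log2 change was 1.07 (SE 0.196, adjusted p = 0.061, limma), or 139.9 ± 22.9 FPKM (SD, n = 3) in SCNT against 66.4 ± 14.1 FPKM (SD, n = 3) in IVF embryos. Over 19 alternative settings the change stayed between 0.91 and 1.32, and the gene passed the threshold in 7 of them (adjusted p from 0.0167 to 0.222, limma). ENSBTAG00000031773 was at 10.7, 4.32 and 10.3 FPKM in oocytes, 54.9, 50.7 and 45.5 FPKM in IVF and 104.4, 87.8 and 95.3 FPKM in SCNT replicates. Again the embryo groups did not overlap. Its log2 change was 0.92 (SE 0.256, adjusted p = 0.0731, limma), and it passed in 2 of 19 alternatives (adjusted p from 0.0104 to 0.223, limma).

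ENSBTAG00000031773 shares values with another of the 73 genes. Both had exactly the same deposited FPKM in MII replicates 1 and 3, at 10.7 and 10.3 FPKM, and in MII replicate 2 the other gene was 1.33 times as high. In the embryos they parted, since the other gene was at 53.4, 78.9 and 48.7 FPKM in IVF and 77, 77.5 and 81.3 FPKM in SCNT replicates, with overlapping libraries. Genes with near-identical copies can share reads, and whether these 2 do was not tested. The number of reads behind their values was not worked out either, so the level of each is uncertain. Over the whole table, 44 pairs of genes had identical FPKM of at least 1 in 2 or more libraries, and this was the only pair within the set.

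Among the other 7 genes whose SCNT libraries all lay above the IVF libraries, the largest changes belonged to a pair of abundant genes. One was at 275.2, 242.1 and 264.8 FPKM in IVF and 409.7, 438.9 and 459.1 FPKM in SCNT replicates, against 33.8, 24.6 and 36.8 FPKM in oocytes. Its log2 change was 0.74 (SE 0.147, adjusted p = 0.0644, limma), and the replicates of each embryo group lay close together. Another was at 194.2, 203.4 and 126 FPKM in IVF and 287.9, 270.9 and 247 FPKM in SCNT replicates, against 22.9, 15.5 and 10 FPKM in oocytes. Its SCNT level was higher by 0.65 on the log2 scale (limma adjusted p = 0.129, SE 0.258). The remaining 5 had log2 changes between 0.20 and 0.52.

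In the other direction the differences were smaller. ENSBTAG00000018415 was at 1.31, 1.29 and 1.16 FPKM in oocytes, 12.9, 13.2 and 15.8 FPKM in IVF and 7.88, 10.8 and 8.94 FPKM in SCNT replicates. Its SCNT libraries all lay below its IVF libraries. The log2 change was -0.55 (SE 0.164, adjusted p = 0.0794, limma), and it passed in 2 of 19 alternatives (adjusted p from 0.0386 to 0.366, limma). ENSBTAG00000006075 was at 2.59, 4.15 and 3.94 FPKM in oocytes, 26.5, 23.7 and 31.4 FPKM in IVF and 16.7, 20 and 22.3 FPKM in SCNT replicates. The embryo groups again did not overlap, and the log2 change was -0.45 (limma adjusted p = 0.139, SE 0.187). It passed in none of 19 alternatives (adjusted p from 0.0782 to 0.574, limma). The other 5 genes of this kind had log2 changes between -0.41 and -0.21, and the most abundant of them averaged 96.9 FPKM in IVF and 82.9 FPKM in SCNT embryos.

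**Figure D4:**
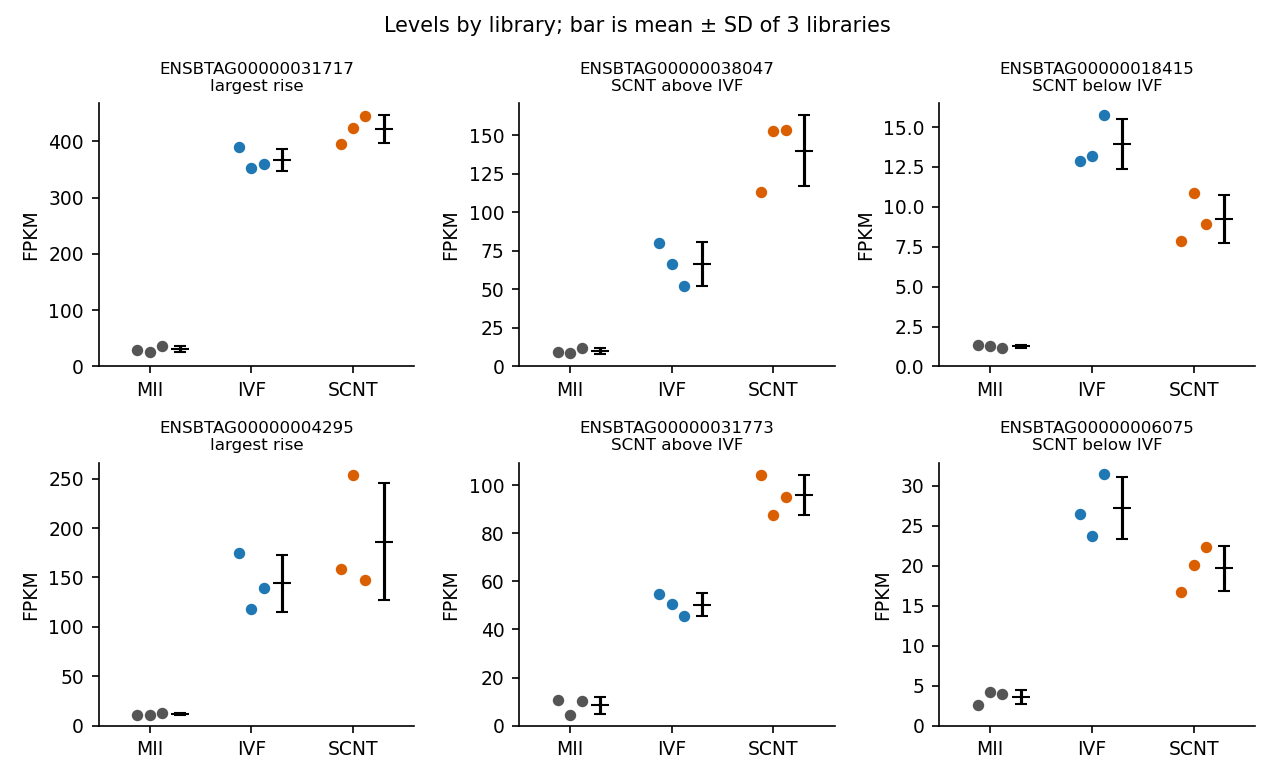
FPKM of 6 of the genes in each library (points) with the mean ± SD of 3 libraries beside them, for the largest ratios of embryo to oocyte (left), genes with SCNT above IVF (middle) and genes with SCNT below IVF (right). In the middle and right columns no SCNT point overlaps the IVF points, and each gene's oocyte points lie far below both.

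Within the SCNT group 1 library tended to be high. SCNT replicate 2 was the highest SCNT library for 56 of the 73 genes (76.7%, against 50.8% of all tested genes), and SCNT replicate 1 was the lowest for 49 (67.1%, against 53.2%). IVF replicate 3 was the highest IVF library for 37 genes (50.7%, against 47.1%) and IVF replicate 2 the lowest for 43 (58.9%, against 43.8%). The SD of log2(FPKM + 1) between replicates had a median over the set of 0.249 in oocytes, 0.182 in IVF and 0.224 in SCNT embryos. Over the 7516 oocyte-present genes it was 0.238, 0.148 and 0.172. Some of the set varied more in SCNT than in IVF embryos, and others more in IVF than in SCNT embryos. One of the first kind had 175, 410.3 and 359.4 FPKM in SCNT embryos (replicates 1, 2 and 3), while its IVF values were 274.6, 220.4 and 296.2 FPKM. Another had 140.7, 361.8 and 331.4 FPKM in SCNT embryos and 268.1, 178.6 and 304.1 FPKM in IVF embryos. It varied in both kinds, with an SD of 119.9 FPKM in SCNT and 64.6 FPKM in IVF embryos. In both genes SCNT replicate 1 lay below every IVF library, while SCNT replicates 2 and 3 lay above every IVF library. A gene of the other kind had 20.3, 11.6 and 19.1 FPKM in IVF embryos and 11.3, 12.3 and 12 FPKM in SCNT embryos.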

How the data were processed

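Per the labels' protocols, cDNA was made from pooled oocytes or embryos, tailed, amplified and sequenced, with no strand-marking step described. Reads from overlapping genes on opposite strands therefore cannot be told apart. The authors deposited 1 table of FPKM values for 24616 genes in 9 libraries, and the unit is taken from its name. The submitters' processing notes name RSEM 1.2.12, Bowtie2 2.2.5, StringTie 1.0.4, HISAT 0.1.6, bcl2fastq 2.16 and the build UMD3.1, without saying which tool made the FPKM values. Read counts were not used, and no count model was fitted.

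Groups came from the sample titles. Genes that reached 1 FPKM in 3 or more libraries (9458, the 73 among them) were fitted as log2(FPKM + 1) with limma 3.58.1 in R 4.3.3. The fit had a term per group, a mean-variance trend and 1 shared spread. P-values were adjusted by Benjamini-Hochberg over all tested genes, and the threshold was 0.05. A log2 change on this scale understates that of low genes. On simulated data for SCNT minus IVF with 9458 genes, limma recovered 72% of genes changed by 1 and 96% of those changed by 2 on the log2 scale, with 8 unchanged genes called. The changed genes were drawn from those with a mean log2(FPKM + 1) above 1, and the noise was normal and independent for each gene. Shifts shared by many genes of a library were not simulated, so these shares may not hold for the data. Relative depth was read from the ratio of values under 1 FPKM between each library and SCNT replicate 3. Only genes with such nonzero values in both libraries and a ratio near equality were counted. Of these, between 15.5% (MII replicate 1) and 38.7% (SCNT replicate 1) lay in the commonest window of 0.03 on the log2 scale. The depth is therefore approximate, most of all for MII replicate 1. Other values used Python 3.11.15, numpy 2.4.6, pandas 2.3.3 and matplotlib 3.10.9.

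The member genes, the lists and the tests were chosen with earlier results of these data known. Identifiers printed are the 2 with the largest ratio of lowest embryo to highest oocyte library and, among genes whose SCNT and IVF libraries do not overlap, the 2 largest changes in each direction. The planned naming by symbol and gene list, and a planned search of promoters, were not carried out, since 0 identifiers matched a name. Alternatives were other pseudocounts, filters, scalings, fits, limits of the rule, and leaving out each library.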

Additional observations from a re-analysis of the deposited data

How the results depend on the processing

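The number of genes that met the rule, 73 as deposited, was 27 with quantile normalization, 177 at 3-fold and 31 at 5-fold, and 74 to 129 with 1 library left out. It stayed within 1.5 times of 73 in the other settings tried. Of the 73, limma called 0 between SCNT and IVF embryos, 1 with a pseudocount of 5, 1 under median-ratio scaling, 2 under quantile normalization, 4 with only the 6 embryo libraries fitted, 5 at an adjusted p under 0.1 (added after seeing the data), and 0 to 5 with 1 library left out. Their median log2 change, -0.05, was 0.20 under median-ratio scaling and 0.19 under quantile normalization. It ran from -0.12 to 0.077 with 1 library left out. Genes with all SCNT libraries above the IVF libraries numbered 9, or 5 with a common total, 24 under median-ratio scaling, 19 under quantile normalization and 9 to 16 with 1 library left out. Those below numbered 7, or 13, 1 and 1 under these scalings and 7 to 20 with 1 library left out. The shares of all tested genes moved too. Above were 4.63% as deposited and 2.87%, 13.4% and 10.9% under these scalings, and below were 36.7%, or 45.9%, 15.7% and 14.4%. With 1 embryo library left out, 5.99% to 9.63% of all tested genes lay above and 39.5% to 49.1% below. The summed level was 0.18 higher in SCNT than in IVF embryos on the log2 scale, 0.085 with a common total and 0.43 with median-ratio scaling. Over all 9458 genes, limma called 17 between SCNT and IVF embryos. It called 7 with a pseudocount of 0.1, 35 with 5, 30 under median-ratio scaling, 59 under quantile normalization, 11 without the mean-variance trend, 1265 with only the embryo libraries, 1429 at an adjusted p under 0.1 and 7 to 1606 with 1 library left out. The largest value, 1606, was without MII replicate 2. The share called higher was 64.7% as deposited, 90% under median-ratio scaling and 81.4% under quantile normalization. Most calls were lower in other settings, with 11.1% higher when only the embryo libraries were fitted (141 higher and 1124 lower), 10.5% without MII replicate 2 (169 and 1437), 11% at an adjusted p under 0.1 (157 and 1272) and 42.9% without IVF replicate 2 (6 and 8). The balance of higher and lower calls therefore has no direction that holds across settings. With the replicate number as a block, 9 genes were called. Deviations of same-numbered IVF and SCNT libraries correlated at -0.03, -0.09 and -0.06, and no library correlated best with its own number. These values gave no sign of pairing by number, but with 3 libraries per group they cannot exclude a shared source, and oocyte libraries were not compared. The block changed no call among the 73 genes. Leaving out oocyte libraries changed the estimated spread and not the SCNT minus IVF log2 changes. The cause of the differences between settings was otherwise not tested.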

Other observations

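A further 3 genes rose by the same rule but averaged 1000 FPKM or more and were kept out of the set. The first was at 360.7, 351.4 and 412.3 FPKM in MII replicates 1, 2 and 3, 2592, 2411 and 2539 FPKM in IVF embryos and 2726, 2887 and 2582 FPKM in SCNT embryos. The second was at 216.4, 193.8 and 268.9 FPKM in oocytes, 1228, 1230 and 1300.3 FPKM in IVF and 1668, 2061 and 1752 FPKM in SCNT replicates. The last was at 158.8, 125.1 and 179.7 FPKM in oocytes, 1765, 1454 and 1482 FPKM in IVF and 1655, 1967 and 1919 FPKM in SCNT replicates. In the second gene every SCNT library lay above every IVF library, and in both other genes the embryo groups overlapped.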
